A study of Mus musculus with 3 samples.

Results

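Border macrophages with high MHC class II (MHCII-high) were examined in single-cell RNA sequencing of mouse meninges, the membranes that cover the brain. A droplet was taken as a cell when it held at least 500 UMIs (unique molecular identifiers, each marking 1 captured RNA molecule), passed the study's limits on detected genes and had under 8.3% of its UMIs in mitochondrial genes. A cell was a border macrophage when *Pf4*, *Mrc1*, *Ms4a7*, *Dab2* and *Cbr2* together took at least 0.3% of its UMIs and at least 3 of the 5 were detected. It was MHCII-high when *H2-Aa*, *H2-Ab1*, *H2-Eb1* and *Cd74* together took at least 1% of its UMIs, and MHCII-low otherwise. Of 7057 cells, 208 were border macrophages, and 78 of these were MHCII-high. The 9 genes of this rule chose the cells, so their values are given as a description with no test.

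The tissue came from male C57BL/6J mice aged 10-12 weeks. The home cage (HC) group, 2 libraries, was not stressed. The chronic social defeat (CSD) group, 1 library, was defeated over 14 days, and its mice were selected as stress-susceptible by social interaction, urine scent marking and behavior in an open field (the labels name only the last 2). Each library was a pool of 4 mice, prepared by picking pia and arachnoid from the brain and removing the membranes attached to the skull, digesting with collagenase, sorting live nucleated singlets (DAPI- DRAQ5+) and loading the 3 pools on separate lanes of the same chip. The labels list no transgene or engineered allele. The animals within a pool cannot be separated, and with a single CSD library the effect of CSD and that of its library and lane cannot be told apart.

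The libraries held 9891861, 8814690 and 10206236 UMIs (in the order of first HC, second HC and CSD library, used throughout) and 2599, 1702 and 2756 cells. MHCII-high cells numbered 56, 4 and 18, with 170680, 13354 and 47966 UMIs between them, and MHCII-low cells 110, 2 and 18. HC replicate 2 thus stood apart. Only 6 of its 1702 cells were border macrophages, and 24.1% of its UMIs lay in droplets with at most 100 UMIs, against 7.87% and 5.48% in the other libraries. Its sums rest on 4 MHCII-high and 2 MHCII-low cells, so counts of changed genes are also given without it where a test remains. Between pairs of libraries 8, 6 and 3 cell barcodes were shared, none of them an MHCII-high cell. Of 389 droplets marked as likely doublets, none was MHCII-high and 10 were MHCII-low. A separate mark for mixed content fell on 16 MHCII-high cells, 13, 2 and 1 per library. With marked cells left out, 62 MHCII-high cells remained, 2 of them in HC replicate 2.

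Border macrophages live in the meninges, the perivascular spaces and the choroid plexus, where they take up material from the cerebrospinal fluid and the blood. MHC class II is the surface complex with which such cells show peptides from engulfed protein to CD4+ T cells. It is built in the endoplasmic reticulum around the invariant chain (*Cd74*), which is then cut down by endosomal proteases such as cathepsin S (*Ctss*), and the remaining peptide is exchanged for antigen by H2-DM (*H2-DMa*, *H2-DMb1*, *H2-DMb2*), a step that H2-O (*H2-Oa*, *H2-Ob*) restrains. The chain genes *H2-Aa*, *H2-Ab1* and *H2-Eb1* and the H2-DM and H2-O genes lie together on chromosome 17 and are classically switched on by the coactivator CIITA, through promoters with a short conserved module that ends in a Y box.

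Promoters are shown for 2 genes of the rule, for the pair of H2-DM genes that were higher in MHCII-high than in MHCII-low cells, and for *H2-Oa*, which had 1 UMI over the 78 cells together. Each is the 150 bases before the RefSeq start of the gene in GRCm38.p6, written 5′ to 3′ on the strand of the gene, with the letters TGATTGG of the Y box in capitals where they occur on either strand. The positions are *H2-Aa* chr17:34287824-34287973 (minus strand), *H2-Eb1* chr17:34305717-34305866 (plus strand), *H2-DMb1* chr17:34153041-34153190 (plus strand), *H2-DMa* chr17:34122682-34122831 (plus strand, the first of its 2 listed starts) and *H2-Oa* chr17:34092229-34092378 (plus strand).
H2-Aa: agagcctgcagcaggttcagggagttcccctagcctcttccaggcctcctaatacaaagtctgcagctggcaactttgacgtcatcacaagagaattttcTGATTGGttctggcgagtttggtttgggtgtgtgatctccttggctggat
H2-Eb1: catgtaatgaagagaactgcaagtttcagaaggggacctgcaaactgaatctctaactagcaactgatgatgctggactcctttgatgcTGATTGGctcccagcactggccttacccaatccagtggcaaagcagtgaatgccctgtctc
H2-DMb1: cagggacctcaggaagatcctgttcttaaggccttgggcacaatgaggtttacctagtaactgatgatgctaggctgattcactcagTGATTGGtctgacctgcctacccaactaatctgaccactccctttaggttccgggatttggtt
H2-DMa: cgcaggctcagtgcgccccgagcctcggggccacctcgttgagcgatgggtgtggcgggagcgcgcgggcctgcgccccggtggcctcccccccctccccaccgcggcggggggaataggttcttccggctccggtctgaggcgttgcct
H2-Oa: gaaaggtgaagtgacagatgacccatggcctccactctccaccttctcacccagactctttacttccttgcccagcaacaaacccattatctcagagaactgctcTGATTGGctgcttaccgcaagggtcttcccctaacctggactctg
The letters were found once each in *H2-Aa*, *H2-Eb1*, *H2-DMb1* and *H2-Oa*, with their first base 50, 61, 63 and 45 bases before the start, and in neither window of *H2-DMa*. They occur on either strand in 5.71% of 32851 RefSeq windows of the same length. They were the only letters searched, a match is a description of the sequence, and *H2-Ab1* was not among the promoters listed. Starts of *H2-DMa* other than those listed were not examined, so the absence holds for these windows only.

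The 4 rule genes of MHC class II took a median of 4.40%, 3.75% and 3.80% of the UMIs of an MHCII-high cell in the 3 libraries, and single cells ranged from 1.04% to 9.71%. In MHCII-low cells the medians were 0.338%, 0.243% and 0.149%. *Cd74* was at 18866, 17598 and 18284 CPM (UMIs of a gene per 1000000 UMIs of the summed cells), against 1280 over all MHCII-low cells. *H2-Aa*, the alpha chain of I-A, was at 8132, 7264 and 8381 CPM against 738. The range was continuous at the threshold. The 3 cells just inside it had 1.04%, 1.10% and 1.14%, the 3 just outside 0.978%, 0.969% and 0.937%, and 12 of the 208 border macrophages lay between 0.8% and 1.2%.

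**Figure D1:**
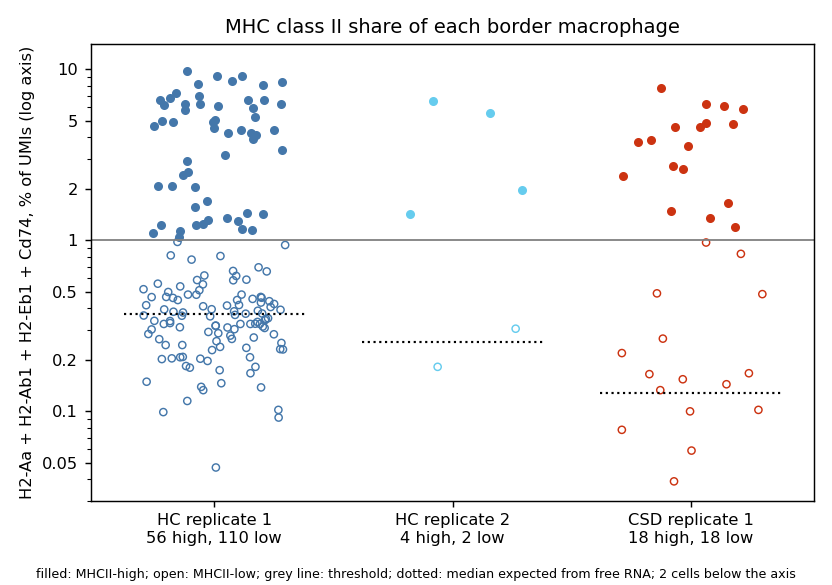
Share of UMIs in the 4 MHC class II genes of the rule for each border macrophage (vertical axis, percent, log scale), by library, filled for MHCII-high and open for MHCII-low cells, with the 1% threshold as a gray line and the median share expected from free RNA as dotted lines. MHCII-high cells fill the range from 1.04% to 9.71% without a gap at the threshold, and 2 MHCII-low cells lie below the axis, which starts at 0.03%.

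RNA released from broken cells enters every droplet and carries MHC class II transcripts, so its share was measured. From 6 neutrophil genes that a macrophage should lack, free RNA was estimated to make up 31.3%, 20.9% and 24.2% of the UMIs of the MHCII-high sums. At that level it would give a MHCII-high cell a median MHC class II share of 0.369%, 0.253% and 0.128%, and 0.492% in the most exposed cell. The rule's threshold lies above these values, so they describe the cells and are no test. In the MHCII-low sums free RNA made up 42.1%, 21.4% and 25.8%, so in HC replicate 1 it differed between the classes. There the neutrophil genes summed to 46441 CPM in MHCII-low and 34614 CPM in MHCII-high cells and the fibroblast genes to 1141 and 521 CPM. The part of this difference in the comparison of the classes was not tested beyond subtracting free RNA.

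The label was then checked against marker genes. All 5 border genes were detected in the cells of each library, with summed levels of 5636, 4793 and 5087 CPM. The receptor for CSF1, *Csf1r*, was at 510, 300 and 396 CPM, and 18, 34 and 26 cells held 3, 4 and 5 of the 5 rule genes. The rule used these 5 genes, so only the markers of other cells are independent of it. Of 7 microglia genes, *Sall1*, a transcription factor that defines these cells, was at 0 UMIs, but it was at most 5.36 CPM even in droplets with at most 100 UMIs (near-empty droplets). *Gpr34*, a receptor of microglia and some other macrophages, was at 123, 225 and 83.4 CPM, above the 59.1, 51.7 and 26.8 CPM of the near-empty droplets in each library. The list summed to 662, 449 and 459 CPM, with *Olfml3* the most abundant, against 872, 827 and 426 CPM in near-empty droplets. The conventional dendritic cell (cDC) genes *Flt3*, *Zbtb46*, *Xcr1*, *Clec9a*, *Itgae* and *Ccr7* were all at 0 UMIs, which in 232000 UMIs allows up to 12.9 CPM. The 8 cDC genes together reached 41.0, 0 and 20.8 CPM, against 1140, 2014 and 889 in the 27 cDCs described below.

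Most genes of other cells were at levels below those of the near-empty droplets, which hold free RNA. The 7 neutrophil genes summed to 34614, 27557 and 39945 CPM, with *S100a8* the most abundant, against 110380, 131680 and 165410 CPM in near-empty droplets. The erythroid genes summed to 1933, 2546 and 6129 CPM, with *Hbb-bs* the most abundant, against 5234, 14422 and 28501. The 6 B cell genes found summed to 322, 599 and 188 CPM (most abundant *Cd79b*) against 793, 1608 and 699. The fibroblast genes summed to 521, 749 and 62.5 CPM (most abundant *Mgp*) against 2648, 2107 and 806, and the T and NK cell genes to 70.3, 150 and 62.5 CPM (most abundant *Nkg7*, *Cd3e* at 0) against 301, 513 and 340. All of these sums were below the near-empty droplets in each library. *Cd79b* alone was at 176, 150 and 146 CPM against 193, 430 and 134 CPM, and so above them in CSD. Free RNA was estimated at 31.3%, 20.9% and 24.2% of the MHCII-high UMIs, so the full level of the near-empty droplets is a lenient limit. The monocyte list summed to 1576, 1048 and 2252 CPM against 3455, 3997 and 5238, but its most abundant gene, *F13a1*, was at 674, 524 and 688 CPM, above the 144, 58.3 and 145 CPM of the near-empty droplets. *F13a1* was at 730 CPM in MHCII-low cells, whereas *Ly6c2*, the surface antigen of classical monocytes, was at 205, 150 and 292 CPM against 834, 957 and 915 in the near-empty droplets. Endothelial genes summed to 5.86, 0 and 0 CPM. The part of these other cells and of free RNA in the results below was not tested beyond the alternatives given.

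MHCII-high cells made up 33.7% of border macrophages in HC replicate 1 (95% exact Clopper-Pearson interval 26.6 to 41.5), 66.7% in HC replicate 2 (22.3 to 95.7) and 50.0% in CSD replicate 1 (32.9 to 67.1). CSD lay between the HC libraries, and its difference from their mean was -0.201 percentage points against an HC SD of 23.3 points. Against HC replicate 2 alone the difference was -16.7 points, and against HC replicate 1 alone 16.3 points. As 1 library against 2 can be arranged in only 3 ways, no permutation test can reach 0.05. Of all cells, MHCII-high cells were 2.15%, 0.235% and 0.653%, and border macrophages of both classes 6.39%, 0.353% and 1.31%. Both shares were lowest in HC replicate 2 and highest in HC replicate 1, so the HC pools enclosed CSD. Intervals here and below cover counting error only, and a lower share can come from fewer of these cells or from less RNA per cell, which cannot be told apart here. Median UMIs per MHCII-high cell were 2966.5, 3062 and 2616.5, and per MHCII-low cell 3050, 2579 and 1786.5.

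Other genes were ordered along the range of MHC class II. Border macrophages were split by their MHC class II share into bands of under 0.5% (110 cells), 0.5-1% (20), 1-2% (21), 2-4% (15) and at least 4% (42). *Lyve1*, a hyaluronan receptor and the usual marker of the MHCII-low border macrophage, stood at 526, 388, 218, 45.6 and 0 CPM over these bands, with 0 of 124024 UMIs in the highest (which allows up to 24.2 CPM) and 11 of the 14 UMIs of the 1-2% band in a single cell. *Folr2*, a folate receptor of resident macrophages, stood at 363, 368, 234, 205 and 121 CPM. *Cd163*, the hemoglobin-haptoglobin receptor, was at 248, 245, 140, 22.8 and 121 CPM, and so did not decline evenly. With the libraries summed, each of the 3 receptors was lower in the highest band than in the lowest, and the middle bands rest on few cells. The same held in HC replicate 1. In HC replicate 2 the lowest and highest bands hold 2 cells each. Each receptor was at 388 CPM (2 UMIs) in the lowest and 0 in the highest band, too few UMIs to show an order. Its 1-2% band, also 2 cells, had *Lyve1* at 1521 and *Folr2* at 692 CPM. In CSD, *Lyve1* was at 491 and 0 CPM in the lowest and highest band, but *Folr2* was at 197 and 204 CPM and *Cd163* at 32.8 and 81.5 CPM.

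H2-DM, the peptide exchange factor, had the opposite order. With the libraries summed, *H2-DMa* was at 213, 306, 624, 820 and 839 CPM, higher in each band than in the one before. No single library showed this steady order. HC replicate 1 had 888 CPM at 2-4% and 878 CPM in the highest band. CSD had 459, 0 and 451 CPM in the bands under 2%, and HC replicate 2 had 388, 692 and 327 CPM in its bands with cells. *H2-DMb1* was at 127, 143, 359, 137 and 750 CPM, with a dip at 2-4% that rests on 15 cells. In contrast to both groups, *C1qa*, a chain of complement C1q, was level at 8260, 8168, 7770, 9228 and 8119 CPM. The bands are cut on a value the rule used, so they are described without a test.

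**Figure D2:**
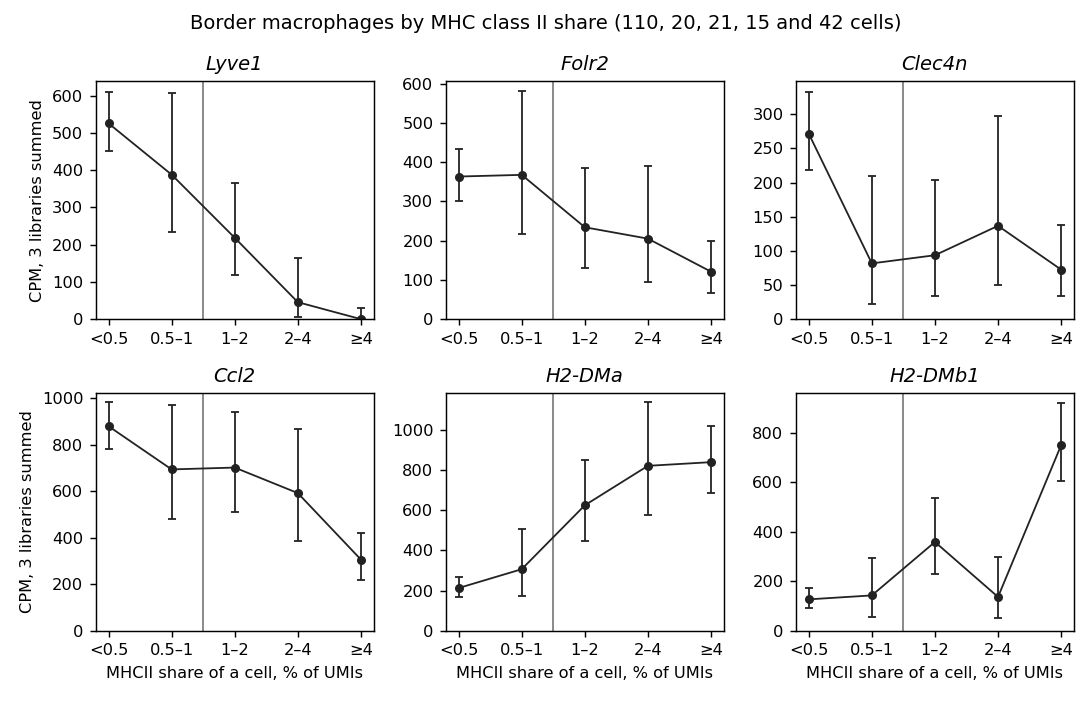
Levels of 6 genes (vertical axis, CPM, 3 libraries summed) in border macrophages grouped by the share of UMIs in the 4 MHC class II genes of the rule (horizontal axis, percent), with 95% exact Poisson intervals and a gray line at the threshold. *Lyve1* goes from 526 CPM in the lowest band to 0 in the highest, while *H2-DMa* goes from 213 to 839 CPM.

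MHCII-high cells were then compared with the 130 MHCII-low cells of the same libraries, to ask what else differs between the classes. The peptide exchange genes *H2-DMa* and *H2-DMb1* were higher in MHCII-high cells, whereas the monocyte-attracting chemokines *Ccl2* and *Ccl7*, *Clec4n* and *Malat1* were lower. Of 2096 genes tested outside the rule, 11 were called at an adjusted p under 0.05 (edgeR quasi-likelihood test with library as a block, 0.525% of genes tested), 3 higher (0.143%) and 8 lower (0.382%) in MHCII-high cells, and the median over all genes tested was a log2 fold change of -0.00. At an unadjusted p under 0.05 there were 134 genes, and DESeq2 called 1 gene, *Cyr61*. Genes were tested when more than 15% of the cells of both classes together held a UMI. Of the 11, 6 passed 15% in each class (*H2-DMa*, *H2-DMb1*, *Ccl2*, *Ccl7*, *Clec4n* and *Malat1*). The other 5 (*Clec4b1*, *Lyve1*, *Cyr61*, *Adam33* and *Etv1*) passed only in the class where they were higher, so that the filter kept them through that class. Without HC replicate 2 there were 3 higher and 3 lower, without HC replicate 1 there were 0 higher and 1 lower, and without CSD replicate 1 none was called. Without the block 1 was higher and 5 lower, and with free RNA subtracted 10 were higher and 2 lower.

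Among MHC class II genes outside the rule, both H2-DM chains rose. *H2-DMa* was at 820, 524 and 688 CPM in MHCII-high and 203, 388 and 418 CPM in MHCII-low cells. Every MHCII-high library lay above every MHCII-low library (log2 fold change 1.56 ± 0.35 SE, adjusted p = 0.00447). *H2-DMb1* was at 586, 300 and 375 CPM against 126, 194 and 149 CPM, again without overlap (2.02 ± 0.39, adjusted p = 0.00012). Its near-identical neighbor *H2-DMb2* was at 70.3, 74.9 and 20.8 CPM in MHCII-high cells, and the division of reads between the pair is uncertain. Of the 16 genes of the list, 7 passed the filter on cells with a UMI, 6 of them with a positive log2 fold change and 2 of them called, with a median of 0.62. The member with a negative value was *Cd86*, the costimulatory ligand (-1.05 ± 0.37, adjusted p = 0.308). Over 13 alternatives, *H2-DMb1* was called in 10 and *H2-DMa* in 8, each with the same sign in all 13. Both calls were lost by DESeq2 and without HC replicate 1 or CSD replicate 1. That of *H2-DMa* was also lost with free RNA subtracted and without the block.

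*Clec4b1*, a C-type lectin receptor, was at 164, 150 and 41.7 CPM in MHCII-high cells and 37, 0 and 0 CPM in MHCII-low cells (32 against 13 UMIs, log2 fold change 2.19 ± 0.51, adjusted p = 0.00691). It was higher in each library, and the lowest MHCII-high library lay just above the highest MHCII-low one. A UMI was found in 20 of 78 MHCII-high and 13 of 130 MHCII-low cells, so *Clec4b1* passed the filter only through MHCII-high cells. *Clec4b1* was called in 8 of 13 alternatives, and not with every gene tested, by DESeq2, without the block, without HC replicate 1 or without CSD replicate 1. A pair of further genes, named by their small p, did not pass. *Lyz2*, lysozyme of myeloid cells, was at 16915, 17747 and 16032 CPM against 11558, 13183 and 12515 CPM (0.57 ± 0.17, adjusted p = 0.0972). *Cd72*, a receptor of B cells and some macrophages, had 37 against 22 UMIs (1.52 ± 0.44, adjusted p = 0.0962).

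Of the 11 endocytic and scavenger receptors tested of 16, 9 had negative values in MHCII-high over MHCII-low cells, with 2 called and a median of -0.86, and with none called after subtraction of free RNA. Of the same 11, 9 passed the filter in each class taken alone, with 1 called, *Clec4n*, and a median of -0.86. The other called gene, *Lyve1*, had a UMI in 4 of 78 MHCII-high and 62 of 130 MHCII-low cells. It passed the filter only through MHCII-low cells. *Lyve1* was at 17.6, 824 and 41.7 CPM in MHCII-high and 513, 388 and 478 CPM in MHCII-low cells. HC replicate 1 and CSD agreed in direction and HC replicate 2 went against them, where all 11 UMIs came from 1 of its 4 cells. In the other libraries *Lyve1* was detected in 1 of 56 and 2 of 18 MHCII-high cells, against 54 of 110 and 7 of 18 MHCII-low cells and 1 of 18 and 0 of 7 cDCs, which should lack it. Over all libraries its edgeR log2 fold change was -2.73 ± 0.43 (adjusted p = 2.73e-07), and -5.25 to -1.07 over the alternatives. The *Lyve1* call was lost by DESeq2, with free RNA subtracted, and without HC replicate 1 or CSD replicate 1. *Clec4n*, the fungal pattern receptor Dectin-2, was at 93.7, 74.9 and 83.4 CPM against 232, 194 and 418 CPM, without overlap (-1.51 ± 0.41, adjusted p = 0.0468). Over the 13 alternatives *Lyve1* was called in 9 and *Clec4n* in 4, with the same sign in all. *Cd163* (-1.02 ± 0.41) and *Stab1*, another scavenger receptor (-0.88 ± 0.35), did not pass (both adjusted p = 0.518).

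Of the 13 chemokines and receptors tested of 19, 8 had negative and 5 positive values, with 2 called and a median of -0.38, and with none called after subtraction of free RNA. Both called genes attract CCR2+ monocytes. *Ccl7* was at 451, 0 and 813 CPM in MHCII-high and 820, 582 and 3047 CPM in MHCII-low cells (-1.37 ± 0.29, adjusted p = 0.00178). *Ccl2* was at 422, 74.9 and 751 CPM against 725, 388 and 2300 CPM (-1.14 ± 0.31, adjusted p = 0.0426). They were called in 9 and 5 of 13 alternatives, and neither was called without HC replicate 1 or without CSD replicate 1. The shares of cells with a UMI differed less, at 27 of 78 MHCII-high and 58 of 130 MHCII-low cells for *Ccl7* and 34 and 60 for *Ccl2*. Among CSD MHCII-low cells, a single cell held 46 of the 102 UMIs of *Ccl7* and a single cell 38 of the 77 of *Ccl2*. Each was lower in MHCII-high cells within every library, but the highest MHCII-high library, CSD, lay above the lowest MHCII-low library, so the classes overlapped.

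The other lower genes came from no single list. *Cyr61*, a matricellular protein secreted by stressed and stromal cells, was at 18, 0 and 0 CPM against 183, 388 and 986 CPM. That is 3 UMIs in MHCII-high cells against 99 in MHCII-low cells, a level 19.8 times higher in the latter (95% counting interval 6.57 to 97.4), and *Cyr61* was called in 12 of 13 alternatives (adjusted p = 2.00e-11). *Adam33*, a membrane metalloprotease, was at 23, 0 and 125 CPM against 126, 194 and 358 CPM (10 against 57 UMIs, a level 3.41 times higher in MHCII-low cells, 1.73 to 7.49, adjusted p = 0.023). *Malat1*, a nuclear long noncoding RNA, was at 49520, 30328 and 40529 CPM against 60676, 57774 and 79510 CPM, without overlap (-0.58 ± 0.15, adjusted p = 0.0347). The last called gene was *Etv1*, an ETS transcription factor, which the naming rule left out and which was named after its values were seen. It was at 0 UMIs in both classes of HC replicate 2 (5 against 50 UMIs, -2.38 ± 0.62, adjusted p = 0.0316). *Adam33*, *Malat1* and *Etv1* were called in 4, 5 and 6 of 13 alternatives. None of the 3 was called with any 1 library left out, and *Adam33* and *Malat1* were not called without the block. *Cyr61*, *Adam33* and *Etv1* had a UMI in 2, 8 and 5 of 78 MHCII-high and 37, 41 and 38 of 130 MHCII-low cells. These genes passed the filter only through MHCII-low cells, where they were higher.

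**Figure D3:**
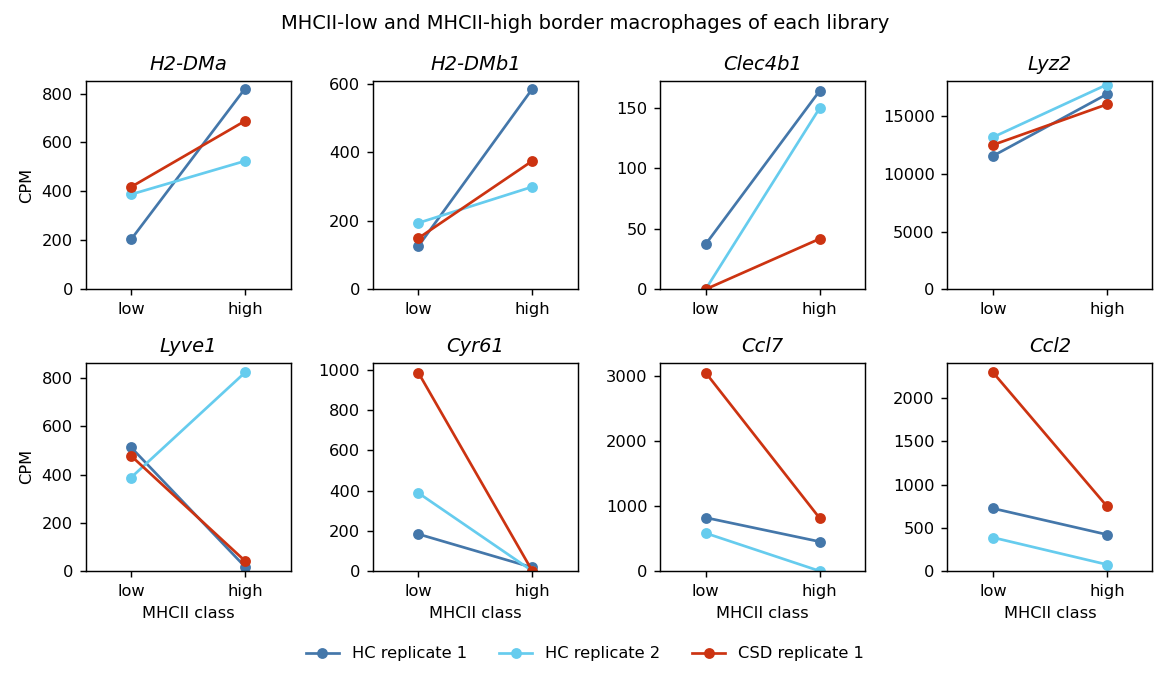
Levels (CPM) of genes outside the rule in MHCII-high and MHCII-low border macrophages, a point per library and lines joining the classes of one library. *H2-DMa* and *H2-DMb1* are higher in MHCII-high cells in 3 of 3 libraries, and *Lyve1* is lower in 2 of 3.

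The remaining lists had no called member in this comparison. All 15 immediate early genes tested had negative values (median -0.35), but without CSD replicate 1 only 9 of 15 (median -0.14), and without HC replicate 1 the median was -0.63. Complement, Fc receptor and lipid genes had 7 positive and 10 negative (median -0.17) and lysosome genes 5 and 12 (median -0.16). MHC class I genes had 6 positive and 4 negative (median 0.09), and the interferon-stimulated genes 5 and 5 (median -0.00). Cytosolic ribosomal protein genes had positive values in 79 of 82 (median 0.26). None of these genes passed the adjusted test. Glucocorticoid-responsive genes (7 tested), transcription factors and growth factor receptors (12), iron genes (4) and proliferation genes (2) had medians of -0.28, 0.07, -0.03 and 0.28.

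Conventional dendritic cells, the professional presenting cells of the meninges, were chosen with the same MHC class II threshold, and were used to show where MHCII-high macrophages differ from them. The 27 cDCs (18, 2 and 7 per library) had at least 1% of UMIs in the 4 MHC class II genes, at least 2 of 8 cDC genes, no *Cd79a* or *Cd79b* and less than the border macrophage share of border genes. *Cd74* was at 19558 CPM over all cDCs and 18672 over all MHCII-high cells, and *H2-Aa* at 9767 and 8134 CPM. Many complement, lysosomal and chemokine genes were higher in MHCII-high macrophages, and ribosomal protein genes and most of the peptide exchange genes lower. Of 2480 genes tested, 311 were called (12.5%), 180 higher (7.26%) and 131 lower (5.28%) in MHCII-high cells (edgeR, library as a block), with a median log2 fold change of 0.06 over all genes. In both cell types more than 15% of cells held a UMI for 110 of the higher and 108 of the lower genes, and the other 70 and 23 passed the filter only through the cell type where they were higher. Without HC replicate 1 the counts were 31 and 8, without HC replicate 2 they were 187 and 173, without CSD replicate 1 they were 67 and 21, without the block 160 and 58, and with free RNA subtracted 131 and 61. DESeq2 called 65 higher and 30 lower and gave no adjusted p for 1106 genes.

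Of the complement, Fc receptor and lipid genes, 13 of 15 tested were higher and none lower, with a median of 3.30. Among the 10 that passed 15% in both cell types, 8 were higher (median 2.93), and without HC replicate 1 the count was 6 of 15. *Apoe*, the lipid carrier apolipoprotein E, was at 32429, 34372 and 36046 CPM in MHCII-high cells and 2148, 504 and 533 CPM in cDCs (log2 fold change 4.93 ± 0.36, adjusted p = 8.32e-39). *C1qa* was at 7576, 7488 and 10778 CPM against 754, 252 and 200 CPM (4.13 ± 0.32, adjusted p = 5.27e-34). Both were without overlap between the classes, and *C1qb* and *C1qc*, the other chains of C1q, had log2 fold changes of 3.93 ± 0.32 and 4.60 ± 0.34. In the free RNA of the near-empty droplets the whole list summed to 17989, 10341 and 11000 CPM, against 62192, 60282 and 72260 CPM in MHCII-high cells and 8531, 7302 and 5334 CPM in cDCs.

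Lysosomal genes were higher in 12 of 17 and lower in none (median 1.78), and all 12 passed 15% in both cell types. Of 8 scavenger receptors tested 4 were higher (median 2.70, or 1.93 with genes at 0 UMIs in cDCs set to their bound), but all 4 passed the filter only through MHCII-high cells, and the 3 that passed 15% in both cell types had a median of 0.62 with none called. Of 4 iron genes 3 were higher (median 2.53, or 1.91), 1 of them among the 2 that passed 15% in both. Without HC replicate 1 these counts were 3, 0 and 0, and without CSD replicate 1 they were 6, 2 and 1. *Folr2*, *Stab1* and *Maf*, given next, also passed only through MHCII-high cells. *Folr2* was at 146, 374 and 188 CPM, with 39 UMIs against 1 in cDCs, a level 28.1 times higher (95% counting interval 4.75 to 1140). *Stab1* had 86 UMIs against 3, a level 20.6 times higher (6.83 to 102). *Maf*, a transcription factor of resident macrophages, had 123 against 2, a level 44.3 times higher (12.0 to 370), and *Csf1r* had a log2 fold change of 2.85 ± 0.45.

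Of the 10 largest fitted rises, 8 were of genes with 0 UMIs in the cDCs, so their rank is set by the prior count. For them only a lower bound can be given, against a floor of 3 UMIs over the group. These 8 and *Ccl12*, with a UMI in 4 of 27 cDCs, passed the filter only through MHCII-high cells. The bounds given next are lower than measured rises outside the 10, such as those of *Maf* (44.3 times) and *Folr2* (28.1 times). *Vcam1*, an adhesion molecule for integrin α4β1, was at least 11-fold higher, *Pla2g7*, a secreted phospholipase, at least 9.84-fold and *Cd93*, a complement-related receptor, at least 6.72-fold. *Hmox1*, heme oxygenase 1, was at least 5.52-fold higher. Others were *Sdc4* (at least 5.28-fold), *Fam212a* (5.04-fold) and the scavenger receptor *Msr1* (4.32-fold). The 2 of the 10 with UMIs in cDCs were *Ccl12*, a CCR2 ligand (log2 fold change 6.28 ± 0.45), and *Sepp1*, the selenium carrier selenoprotein P (5.42 ± 0.40). Of the 14 chemokines and receptors tested, 8 were higher (4 without HC replicate 1) and 1, *Ccr2*, was lower (-2.07 ± 0.46, adjusted p = 0.000191), with a median of 1.79. Among the 11 that passed 15% in both cell types, 6 were higher and 1 lower (median 1.43).

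The MHC class II accessory genes went mostly the other way, with 5 of 10 lower, 1 higher and a median of -0.76. *H2-Oa* was at 0, 0 and 20.8 CPM in MHCII-high cells and 263, 378 and 244 CPM in cDCs. Its single UMI among MHCII-high cells against 44 is a level 61.1 times higher in cDCs (95% counting interval 10.4 to 2470). *H2-Ob* had 3 against 19 UMIs, a level 8.80 times higher in cDCs (2.59 to 46.4), so both chains of the H2-DM inhibitor had lower levels in MHCII-high macrophages. *H2-Oa* had a UMI in 1 of 78 MHCII-high cells and 17 of 27 cDCs and *H2-Ob* in 3 and 13, so both passed the filter only through the cDCs, and among the 7 genes of the list that passed 15% in both cell types 3 were lower and 1 higher (median -0.59). The call of *H2-Ob* was lost by DESeq2, without HC replicate 1 and without CSD replicate 1, and that of *H2-Oa* without HC replicate 1. The letters TGATTGG stand in the promoters of *H2-Oa* and *H2-Aa* alike, as printed above. *H2-DMa* was lower than in cDCs (log2 fold change -0.93 ± 0.26, adjusted p = 0.00567) while *H2-DMb1* did not pass (-0.59 ± 0.27, adjusted p = 0.157), and the thiol reductase *Ifi30* was lower (-2.03 ± 0.37). *H2-DMa* was called in 3 of 9 alternatives, and not without HC replicate 1, without CSD replicate 1 or without the block. The member that was higher was *Ctss*, at 2314, 2546 and 3461 CPM against 1052, 2014 and 733 CPM (1.32 ± 0.26, adjusted p = 1.63e-05).

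Of the other large falls, *Tmsb10*, an actin-binding thymosin, was at 328, 150 and 125 CPM against 2762, 755 and 2311 CPM (-3.40 ± 0.31), with no overlap. The aspartic protease *Napsa* (-4.15 ± 0.54), the calcium-binding *S100a4* (-3.72 ± 0.50), *Rnase6* (-3.46 ± 0.60), *Unc119* (-3.05 ± 0.58), the amidase *Naaa* (-2.87 ± 0.47) and *Plac8* (-2.65 ± 0.40) were lower in each library, and *Bcl2a1d*, an antiapoptotic relative of Bcl-2, had 3 against 24 UMIs. Of these, *Napsa*, *S100a4*, *Rnase6*, *Unc119*, *Naaa* and *Bcl2a1d* had a UMI in 3 to 10 of 78 MHCII-high cells and passed the filter only through the cDCs. *Id2*, a regulator of cDC development, was lower (39 against 100 UMIs, a level 3.56 times higher in cDCs, 2.44 to 5.30), and *Irf8*, another, was called (-0.87 ± 0.28, adjusted p = 0.022) but was lower in 2 of 3 libraries and called in 3 of 9 alternatives. Of 82 ribosomal protein genes 50 were lower and none higher (median -0.76). That count fell to 0 without HC replicate 1 and without CSD replicate 1, 7 without the block, 13 by DESeq2, 9 with free RNA subtracted and 6 without the gene filter. It went up to 75 without HC replicate 2 and 65 with library size alone. The median stayed between -0.59 and -0.89. MHC class I genes had 0 higher and 1 lower of 11, *Psmb8* of the immunoproteasome (median -0.25). Immediate early genes were higher in 7 of 15 (median 0.98), glucocorticoid-responsive genes in 2 of 7 (median 1.08) and interferon-stimulated genes in 3 of 13 (median 0.20), with none lower. Transcription factors and growth factor receptors had 3 higher and 2 lower of 14 (median 0.13), and none of 3 proliferation genes was called (median -0.37).

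**Figure D4:**
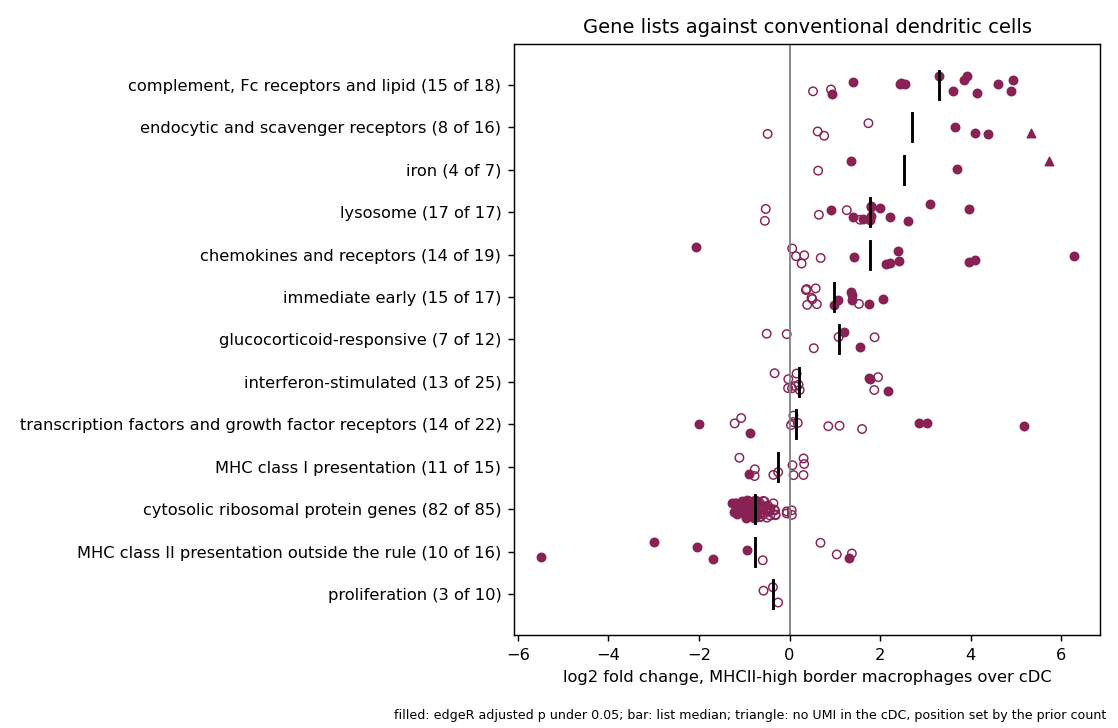
Log2 fold changes of MHCII-high macrophages over cDCs (horizontal axis) for the tested members of each gene list, a point per gene, filled where the adjusted p was under 0.05, with the list median as a bar. Members that passed the filter through 1 cell type only are included. Triangles mark genes with no UMI in cDCs, whose position is set by the prior count. The complement list has the highest median, 3.30, and the MHC class II list outside the rule and the ribosomal protein genes the lowest, both -0.76.

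Finally, MHCII-high cells of the CSD library were compared with those of the HC libraries, the contrast of the study. None of the 2115 genes tested was called (edgeR, 0.0%), and DESeq2 called none either. With library size in place of TMM 4 were called, all higher, and with free RNA subtracted 3 higher and 1 lower. At an unadjusted p under 0.05 there were 64 genes (3.03%), and the smallest adjusted p was 0.995. The test rests on 18 CSD cells against 60 HC cells, 56 of them in 1 library, with the spread taken from the HC pair alone. The 4 MHC class II genes of the rule lay close together. *H2-Ab1* was at 8015, 6814 and 8318 CPM and *H2-Eb1* at 6462, 5766 and 5546 CPM. *H2-DMa* and *H2-DMb1* in CSD lay between the HC libraries.

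The interferon-stimulated genes had a median of 0.50 against 0.02 over all genes, with 10 of the 12 tested of 25 positive, 8 above both HC libraries (as were 677 of 2115 genes tested, 32.0%) and none called by edgeR. *Isg15*, a ubiquitin-like protein induced by type I interferon, was at 41.0, 0 and 292 CPM (edgeR log2 fold change 2.93 ± 0.68, adjusted p = 0.995, and 0.0399 with library size alone). Its 14 CSD UMIs came from 5 of 18 cells, against 7 of 60 HC cells with a UMI, so it passed the filter only through CSD. The 9 list genes that passed 15% in both groups had a median of 0.39. *Ifit3*, an antiviral effector, was at 129, 0 and 354 CPM, and *Bst2*, the tethering factor tetherin, at 480, 225 and 792 CPM. CSD was highest in each of these 3 genes. When cells with 1-2% of UMIs in MHC class II were left out, the list median was -0.19.

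Chemokines had a median of 0.21, with 8 of 14 positive, and of 1.15 without HC replicate 1, where the median over all genes was 0.37. *Ccl12* was at 1764, 674 and 5316 CPM (95% exact Poisson intervals 1570-1974, 308-1279 and 4684-6010), its 255 CSD UMIs from 13 of 18 cells with 67 in one cell (edgeR 1.99 ± 0.51, adjusted p = 0.995, and 9.72e-05 with library size alone). CSD was highest, and the intervals of the HC libraries did not overlap each other either. In the 1-2% band of CSD, 4 cells, *Ccl12* was at 15618 CPM and *Isg15* at 993 CPM. *Ccl7* was at 451, 0 and 813 CPM and *Ccl2* at 422, 74.9 and 751 CPM, again highest in CSD.

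**Figure D5:**
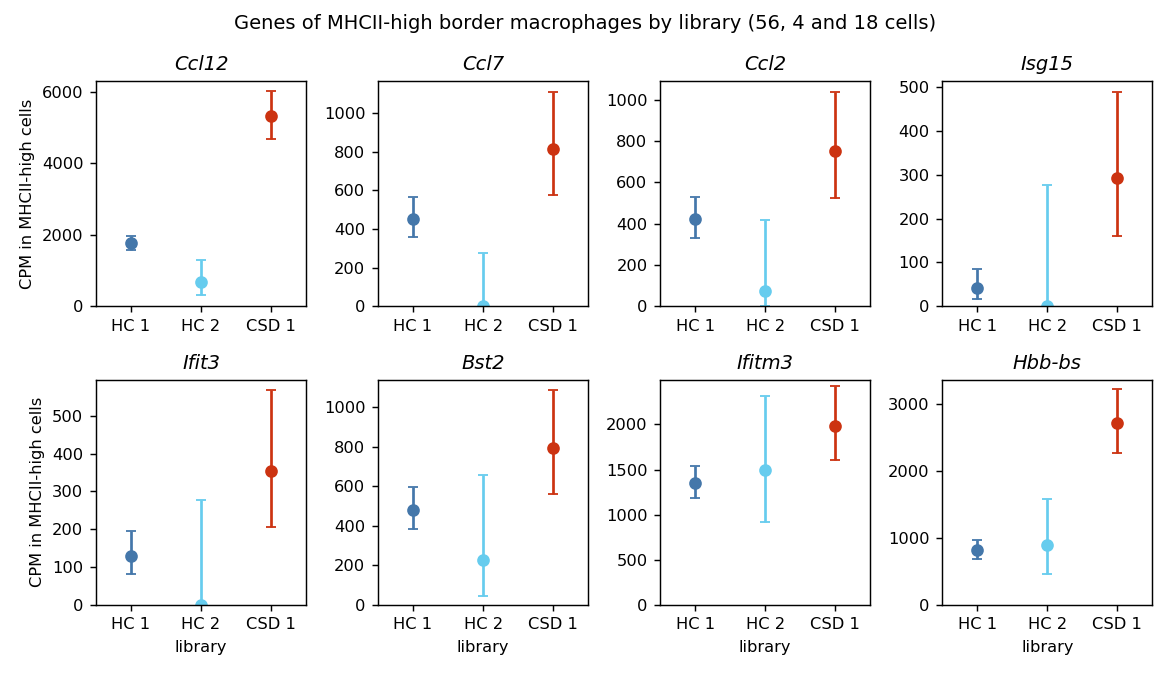
Levels (CPM) in MHCII-high cells of HC replicate 1, HC replicate 2 and CSD replicate 1, with 95% exact Poisson intervals, which cover counting error only. *Ccl12* and *Isg15* are highest in CSD (5316 and 292 CPM), and no gene shown passed the adjusted test.

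The other genes with the smallest p were given by the naming rule. *Hbb-bs*, a hemoglobin chain, was at 814, 899 and 2710 CPM and *Hba-a1*, which has a near-identical copy *Hba-a2*, at 521, 449 and 1668 CPM. Both were highest in CSD, and so was *Hbb-bs* in the near-empty droplets (2473, 6278 and 12540 CPM). Neither passed the adjusted test, and with free RNA subtracted their log2 fold changes of 1.78 and 1.80 became -4.62 and -6.26. *Ifitm6*, an interferon-induced membrane protein, was at 182, 300 and 709 CPM, and at 581, 814 and 1409 CPM in the near-empty droplets. *Ppp1r18*, a phosphatase subunit that binds actin, was at 59, 75 and 313 CPM, again highest in CSD.

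Of the genes with lower values in CSD, *Mgp*, a matrix protein of fibroblasts, was at 404, 449 and 62.5 CPM, and at 1686, 1353 and 572 CPM in the near-empty droplets. *Mt1*, a metallothionein that glucocorticoids and zinc induce, was at 1441, 2097 and 584 CPM (-1.40 ± 0.40, adjusted p = 0.995). *Wbp4*, *Il16* and *Cops6* had 0 UMIs in CSD, against 129 and 150 CPM, 93.7 and 74.9 CPM, and 105 and 74.9 CPM in the HC libraries. These 3 passed the filter only through HC. CSD was lowest in each of these genes, as in 643 of 2115 genes tested (30.4%), and none passed the adjusted test.

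Medians of the other lists in this comparison were 0.18 for complement (9 of 16 positive), 0.18 for lysosome (11 of 17), -0.27 for MHC class II outside the rule (2 of 8), -0.17 for MHC class I (2 of 9), -0.49 for scavenger receptors (1 of 9), -0.22 for immediate early genes (5 of 15) and -0.44 for glucocorticoid-responsive genes (2 of 7). These medians depended on HC replicate 1, without which they were 0.50 for MHC class II (5 of 8 positive), 0.01 for MHC class I (5 of 9) and 0.01 for scavenger receptors (5 of 9), with a median of 0.37 over all genes. Without it those of complement and lysosome were 0.70 and 0.46. *Ctss* was at 2314, 2546 and 3461 CPM (0.64 ± 0.30, adjusted p = 0.995). The gene effects of CSD were also set against those in MHCII-low cells. The interaction called none of 2096 genes (edgeR, 0.0%, 11 at an unadjusted p under 0.05, DESeq2 none). *Ccl4*, a chemokine named by its small p, was at 498, 150 and 375 CPM in MHCII-high and 436, 194 and 2569 CPM in MHCII-low cells (adjusted p = 0.697). Of the MHCII-low UMIs in CSD, 81 of 86 came from 1 cell.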

How the data were processed

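The deposited matrix holds whole-number UMI counts per gene and barcode, unfiltered and not normalized. Per the labels, the authors sorted live nucleated singlets, made 10x Chromium 3′ v2 libraries and counted UMIs with Cell Ranger 2 on mm10 (submitters' processing notes). Barcodes were assigned to libraries by the number that ends them. The members and gene lists were chosen with earlier results of these data known. Near-empty droplets, of at most 100 UMIs, gave the free RNA profile.

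UMIs were summed per library and class. Genes with a UMI in more than 15% of the cells compared were tested with edgeR 4.0.16 (R 4.3.3, TMM, quasi-likelihood, two-sided, Benjamini-Hochberg, threshold 0.05). The 9 rule genes were left out of every comparison, and against cDCs also the 8 cDC genes, *Cd79a* and *Cd79b*. Both classes of a library come from the same pool of mice, so library was a block in comparisons between classes. In CSD against HC the spread came from the HC pair, so its p-values measure the spread between pools. With the block, p-values measure how the difference between classes varies from library to library. CPM and log2 fold changes ± SE were reported. Genes were named as the 10 largest rises and 10 largest falls among called genes with 1 direction in every library, filled to 5 by smallest p, besides members of 13 lists. Some genes that this rule names are not reported here. DESeq2 1.42.0, library size alone, no gene filter, subtracted free RNA, stricter cell limits and each library left out were the alternatives. Scrublet in scanpy 1.11.5 ranked doublets, and the top 5% of scores per library were marked and kept. The fits were tested on simulated counts: with 8-fold changes in 200 genes, 92.5% were recovered for CSD against HC, 100% for MHCII-high against MHCII-low cells and 67% for the interaction. False calls numbered 0, 4 and 0 in the same order. Against cDCs 100% were recovered, with 6 false calls. The simulated spread between libraries was a small fixed value not estimated from these libraries, and only genes of many UMIs were changed. The shares recovered are therefore a check of the fits and do not give the power in these data.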

Additional observations from a re-analysis of the deposited data

How the results depend on the processing

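The share of MHCII-high cells in CSD minus the HC mean was -23.6 points when all 5 border genes were required and -36.9 points after thinning to 500 UMIs, and ranged from -16.7 to 16.3 points with an HC library left out. In CSD against HC, library size alone gave 4 called genes, all higher, and subtraction of free RNA 4, 3 higher and 1 lower, where the log2 fold changes of *Hbb-bs* and *Hba-a1* turned to -4.62 and -6.26. Every other alternative that allowed a test called 0. Free RNA subtraction also gave 1 gene, higher, in the interaction. In MHCII-high against MHCII-low cells (11 called, 3 higher and 8 lower), there were 6 called without cells of mixed content (3 lower), 17 at a 2% threshold (13 lower), 1 by DESeq2 (0 higher and 1 lower), 5 without a gene filter (3 lower), and 10 higher and 2 lower with free RNA subtracted. With 1 library left out the calls ranged from 0 to 6, the higher from 0 to 3 and the lower from 0 to 3. Against cDCs (311 called), DESeq2 called 95 (65 higher and 30 lower), no gene filter 180 (57 lower) and subtraction of free RNA 192 (61 lower), and leaving out 1 library gave 39 to 360 (31 to 187 higher and 8 to 173 lower). DESeq2 moved the median of all genes in that comparison by 0.137 on the log2 scale. The causes were not tested.

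Without the library as a block, MHCII-high against MHCII-low cells gave 6 calls (1 higher and 5 lower), and against cDCs 160 higher and 58 lower. No paired analysis was possible because the replicate numbers of CSD and HC name separate pools of different mice, and no label ties a number to a shared batch or day. The requirement of all 5 border genes could not be fitted for MHCII-high against MHCII-low cells, as HC replicate 2 then had no MHCII-low cell, and without an HC library CSD against HC and the interaction gave values with no test. With 18 CSD and 4 HC replicate 2 cells, depth limits what can be detected for genes of few UMIs.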
